A study of Caenorhabditis elegans with 18 samples.

Results

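The cytosolic ribosomal protein genes of Caenorhabditis elegans were taken as every gene listed under its own name that begins with rpl- or rps- and a digit, for the large and the small ribosomal subunit. There were 67 such genes among 20575 singly named labels in 18 RNA-seq libraries of embryos. A further 9 names of the same form, of 76 in all, appeared only inside loci that join several genes and are counted apart: rpl-23, rpl-29, rpl-36, rpl-36.A, rpl-43, rps-4, rps-5, rps-10 and rps-20. The rule used names alone and no measured value.

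The libraries came from 6 strains with 3 libraries each. They were the double mutants uaf-1(n4588); rbm-5(n5119) and uaf-1(n4588); rbm-5(n5132), the single mutants uaf-1(n4588), rbm-5(n5119) and rbm-5(n5132), and wild type (N2, the laboratory strain). All animals were grown at 20 °C, and bleaching of synchronized adults yielded the eggs, so each library is a pool of many embryos. The gene uaf-1 encodes the large subunit of U2AF, the splicing factor that binds 3′ splice sites, and rbm-5 encodes an RNA-binding protein that, per the title of the series, modulates splicing that depends on it. What the alleles change in each protein is not stated in the sources used here.

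Each ribosome holds 1 copy of most ribosomal proteins, and embryos inherit ribosomes and their mRNAs from the mother before their own transcription begins. The genes are short, carry few introns, often hold small nucleolar RNA (snoRNA) genes inside those introns, and are among the most strongly expressed genes of any growing cell. In this worm, rpl-3, rpl-7A and rpl-12 are known to make unproductive splice forms that are removed by nonsense-mediated decay, the pathway that degrades mRNAs with an early stop codon.

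Values are in FPKM, which scales the fragments of a transcript by its length and by the mapped fragments of the library, and the level of a gene is the summed FPKM of its transcript start events. No read counts were used, so depth is unknown and no counting interval is given. Each library listed 53772 to 55828 entries, and its summed start FPKM was 661398 to 1642150. The replicate 1 libraries had the 6 highest sums, from 1053560 upwards, against at most 920544 in the others. The mutated genes were listed in each strain: uaf-1 averaged 156 ± 15.4 FPKM in uaf-1(n4588); rbm-5(n5119), 176 ± 34.4 in uaf-1(n4588); rbm-5(n5132) and 98.8 ± 29.1 FPKM in uaf-1(n4588), against 176 ± 47.8 FPKM in wild type (SD, n = 3 each), so the double mutants with the same uaf-1 allele lay near wild type. The level of rbm-5 was 51.8 ± 24.06 FPKM in uaf-1(n4588); rbm-5(n5119) (SD, n = 3) and 54.9 ± 52.0 FPKM in uaf-1(n4588); rbm-5(n5132) (SD, n = 2). It was 35.1 ± 25.6 FPKM under the n5132 allele alone and 29.1 ± 4.08 FPKM under n5119 alone (SD, n = 3 each), against 32.2 ± 2.14 FPKM in wild type (SD, n = 2). Of markers of other material, yolk protein genes of the adult intestine summed to at most 4.25 FPKM and sperm genes to at most 1.46 FPKM in any library. Early zygotic genes of the embryo summed to 179–470 FPKM, and oocyte genes, which also mark maternal mRNA in early embryos, to 61.2–570.0 FPKM. Muscle and epidermis differentiation genes of the embryo summed to 137–1059 FPKM, a sum that varies with which of them are listed singly. Over the 6 oocyte genes tested in each, the median log2 difference from wild type was 0.96 in uaf-1(n4588); rbm-5(n5119) and 0.30 in uaf-1(n4588); rbm-5(n5132). It was 1.75 in uaf-1(n4588), 0.55 in rbm-5(n5119) and 1.01 in rbm-5(n5132), with 0 called by limma. Over the 3 muscle and epidermis genes tested in each, it was −0.59 in uaf-1(n4588); rbm-5(n5119) and −0.36 in uaf-1(n4588); rbm-5(n5132). For these genes it was −0.26 in uaf-1(n4588), −0.86 in rbm-5(n5119) and 0.17 in rbm-5(n5132), with 0 called by limma. Of the genes taken as larval and adult cuticle markers, sqt-3 was listed singly in 10 libraries, at 555–3649 FPKM. The others summed to at most 2.88 FPKM in any library, so sqt-3 alone is not read here as larval or adult material. No library of uaf-1(n4588); rbm-5(n5119) or uaf-1(n4588) listed sqt-3 singly, which gives no level for it there.

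Every library listed ribosomal protein genes in 4 different ways. Per library, 27 to 40 of the 67 genes had a start of their own above 0 FPKM, 4 to 9 had a start listed at 0, 12 to 25 appeared only in a locus joined with another gene, and 2 to 13 were not listed. By strain, the genes not listed numbered 8–13 in uaf-1(n4588); rbm-5(n5119), 6–10 in uaf-1(n4588); rbm-5(n5132), 9–11 in uaf-1(n4588), 7–8 in rbm-5(n5132), 4–6 in rbm-5(n5119) and 2–6 in wild type. The number of singly named genes of any kind also varied, at 16015–17194 in uaf-1(n4588); rbm-5(n5119), 16003–16257 in uaf-1(n4588); rbm-5(n5132), 16517–16651 in uaf-1(n4588), 16805–17395 in rbm-5(n5132), 16678–17519 in rbm-5(n5119) and 16664–17270 in wild type. These counts were not tested. A level could therefore be compared for only some of the genes in each pair of strains.

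**Figure D1:**
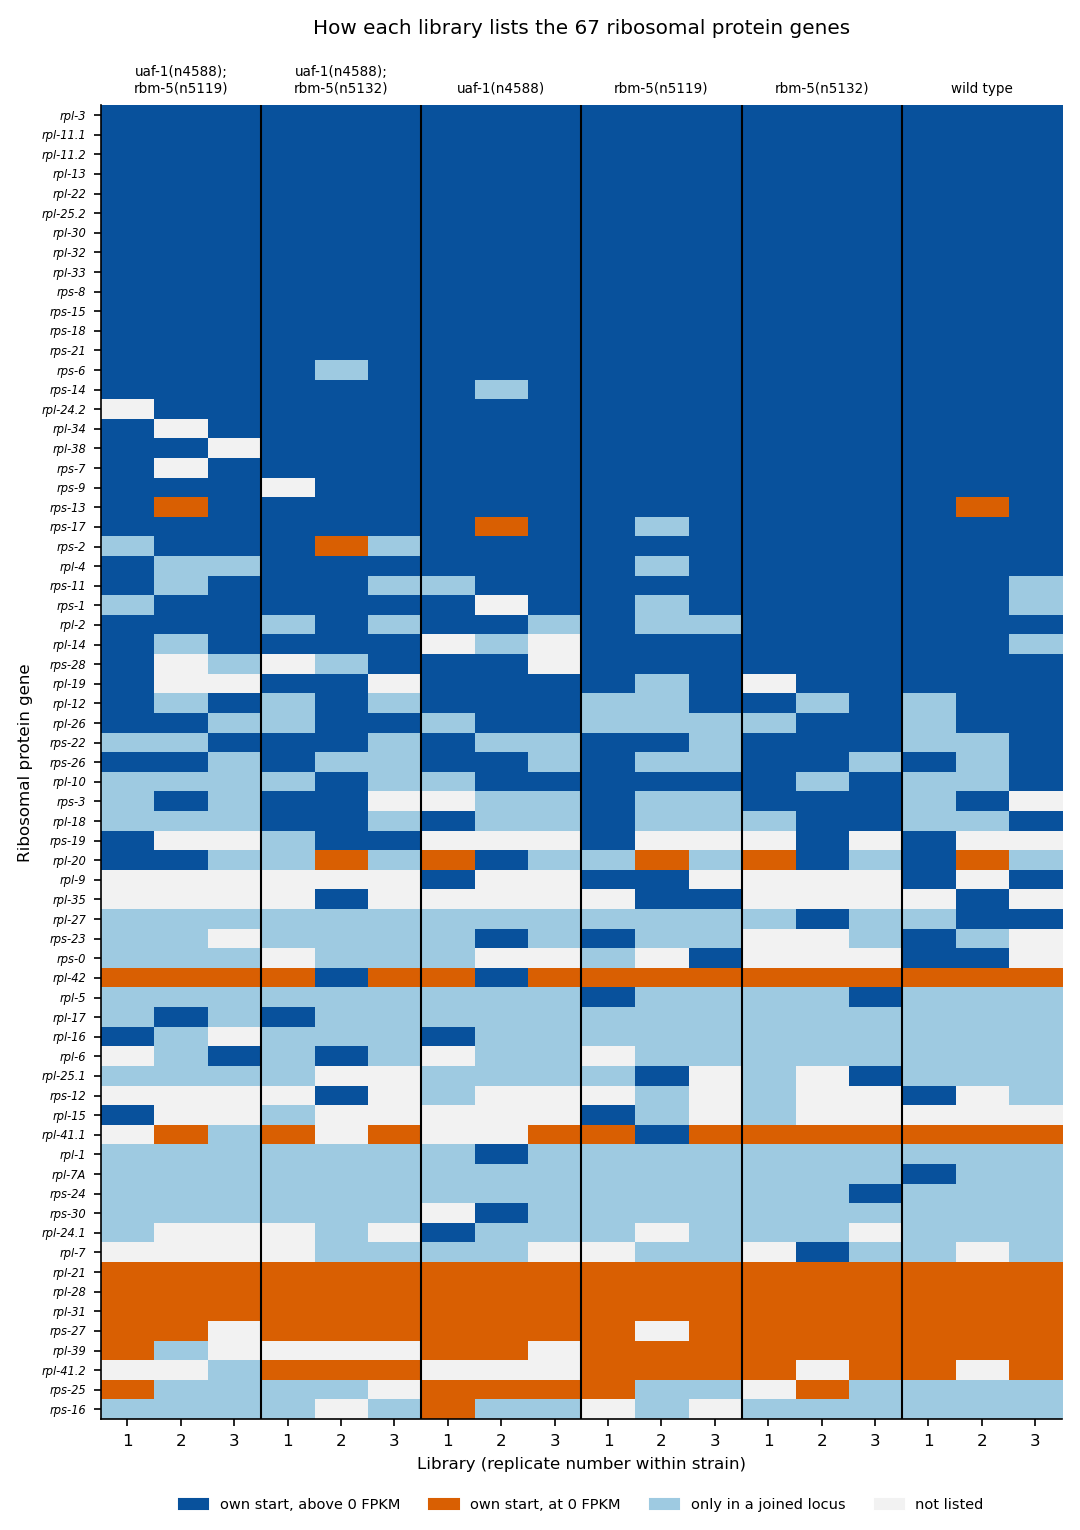
State of each of the 67 ribosomal protein genes (down the page, ordered by the number of libraries above 0 FPKM) in each of the 18 libraries (across, 3 per strain), with colour for an own start above 0, an own start at 0, a joined locus only, or no listing. The top 13 genes are above 0 in all 18 libraries, and rpl-21, rpl-28 and rpl-31 are at 0 in all 18.

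Only 13 genes were above 0 in all 18 libraries: rpl-3, rpl-11.1, rpl-11.2, rpl-13, rpl-22, rpl-25.2, rpl-30, rpl-32, rpl-33, rps-8, rps-15, rps-18 and rps-21. The genes rpl-21, rpl-28 and rpl-31, which encode proteins of the large subunit, were listed at 0 in all 18. With rpl-39, rpl-41.2, rps-16, rps-25 and rps-27, they made 8 genes that were never above 0 where they were listed singly. An exact 0 in these lists can be a failed estimate, and it is not read here as absence of the mRNA. A further 6 genes were at 0 in some libraries and above it in others. Of these, rpl-42 was at 0 in 16 libraries and at 0.397 and 0.423 FPKM in the other 2. The gene rpl-41.1, for the shortest ribosomal protein, was at 0 in 12 libraries and at 8471 FPKM in rbm-5(n5119) replicate 2. For rpl-20, 5 libraries gave 0 and 5 gave 169–702 FPKM. A single library listed rps-2 at 0, a single library rps-17, and 2 libraries rps-13. The remaining 53 genes were never listed at 0.

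Listings at 0 were more frequent in short genes. Of 748 listings of ribosomal protein genes under their own name, 136 were at 0, or 18.2%. For the 27 genes whose longest transcript is under 500 bases the share was 30.8%, against 9.96% for the 24 genes of 500 to 700 bases, 10.8% for 13 genes of 700 to 1000 bases and 0 of 35 listings for the 3 longer genes. The 61 mitochondrial ribosomal protein genes (mrpl- and mrps-), whose products work in another compartment, had 4.27% of 726 listings at 0, and all other singly named genes 31.2%. Among other protein-coding genes the share was also highest under 500 bases, at 70.6%, and it was 16.2% from 1000 bases upwards.

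Most joined loci combined a ribosomal protein gene with a neighbour on the same strand. Of 319 such listings, 295, in 39 genes, named a neighbouring gene, and 21, in 4 genes, named only a gene nested within the ribosomal protein gene. The gene rpl-7A, for a large-subunit protein, was joined with the snoRNA gene Y24D9A.10 in its own intron in 17 libraries. Of genes joined with neighbours, rps-24 was joined with T07A9.14 in 17 libraries, rpl-5, whose product binds the 5S ribosomal RNA, with bcs-1 in 16, rps-30 with C26F1.3 in 16, rpl-27 with C53H9.2 in 15, and rps-16 with fib-1 in 14. fib-1 encodes fibrillarin, the methyltransferase of ribosomal RNA, so a gene of ribosome assembly and a gene of the ribosome were given 1 value there, and fib-1 itself was listed singly in only 3 libraries. In a joined locus the level of the ribosomal protein gene cannot be told apart from that of its neighbour. Such listings entered no comparison of levels, but splice events inside the gene were kept. The 14 genes listed singly in only 1 or 2 libraries include rpl-1, rpl-5, rpl-6, rpl-7, rpl-7A, rpl-15 and rps-12.

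Where a start and an end of a gene were both above 0, they gave nearly the same value. In 546 of 597 such listings the summed start and end FPKM differed by at most 1%. Outside these listings, rpl-3, the gene of a protein near the peptidyl transferase centre, had ends listed at 0 in 15 libraries with starts above 0.

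The 13 genes above 0 in every library kept much of their order. Median levels over the 18 libraries ran from 4800 FPKM for rps-21 through 2965 for rps-18, 2526 for rpl-33, 2389 for rpl-32, 1893 for rpl-22, 1850 for rps-15 and 1767 for rps-8 to 1357 FPKM for rpl-13. Below these lay rpl-30 at 1209, rpl-11.2 at 1208, rpl-25.2 at 1167, rpl-3 at 921 and rpl-11.1 at 151 FPKM. Neighbours from rpl-33 to rpl-3 in this order overlapped widely across libraries, and rpl-11.1 ranked last in every library. In single libraries rps-21 ranged over 2150–14155 FPKM, rps-18 over 1696–3995 FPKM and rpl-33 over 1069–16103 FPKM. The SD of log2 FPKM over the 18 libraries was 0.36 for rps-18, which varied least, and 0.93 for rpl-33, which varied most. Its median over the 13 genes was 0.55, against 0.50 over 206 other genes. Those were all other genes above 0 everywhere with a median level at least that of rpl-11.1, the lowest of the 13. As a description over these 13 genes, Spearman's rho was 0.582–0.951 between libraries of 1 strain (median 0.824) and 0.527–0.989 between libraries of different strains (median 0.857). FPKM is already per length. Even so, the shorter of the 13 genes had the higher values, with rho of −0.68 between transcript length and median level.

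**Figure D2:**
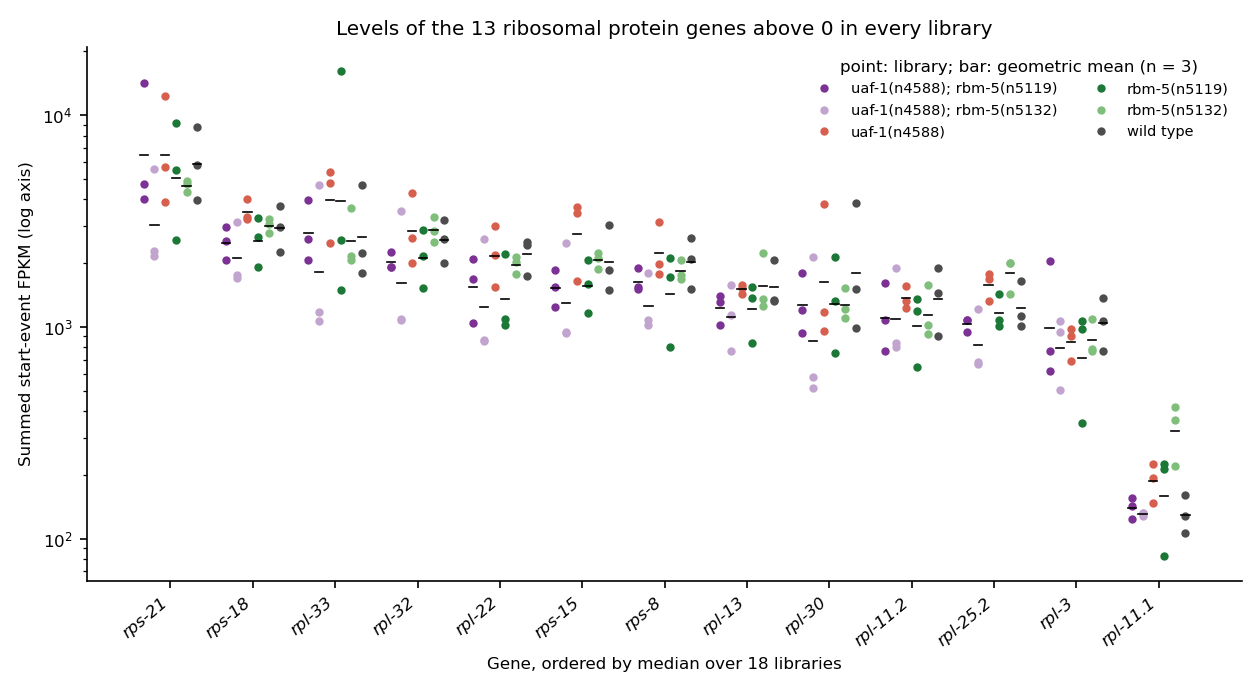
Summed start FPKM (log axis) of the 13 ribosomal protein genes above 0 in every library, ordered by their median, with 1 point per library, colours for strains with wild type at the right of each gene, and bars for the geometric mean of 3 libraries. Each mutant overlaps wild type for each gene except rpl-11.1, where rbm-5(n5132) at 220–417 FPKM lies above wild type at 107–160 FPKM.

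The highest single levels belonged to 2 genes missing from some libraries. In the 17 libraries that listed it, rpl-38, for a small protein of the large subunit, lay at 3867–39097 FPKM. Its replicate 1 libraries held 35747 FPKM in uaf-1(n4588); rbm-5(n5119), 36922 in uaf-1(n4588); rbm-5(n5132), 39097 in uaf-1(n4588), 37313 in rbm-5(n5132), 30944 in rbm-5(n5119) and only 4943 FPKM in wild type. All replicates 2 and 3 lay at 3867–10711 FPKM, so the mutant replicate 1 libraries stood apart from every other library. The second of these genes, rps-28, lay at 3356–22664 FPKM in 13 libraries.

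Libraries numbered 1 gave higher levels for most ribosomal protein genes. Over the 32 genes above 0 in at least 3 replicate 1 libraries and 6 of the others, the log2 ratio of the median in replicate 1 to the median in replicates 2 and 3 had a median of 0.43, and it was above 0 for 28 of the 32. It was 2.26 for rpl-38 (36334 against 7581 FPKM), 1.14 for rpl-33, 1.11 for rps-21 and 1.03 for rpl-30. It was −0.21 for rpl-14 and −0.12 for rpl-11.1. In 121 other genes with a median of at least 200 FPKM the median ratio was 0.0041. In the 11 ribosomal protein genes under 500 bases the median ratio was 0.61, and in the 11 of 500 to 700 bases it was 0.39. It was 0.38 in the 8 of 700 to 1000 bases and 0.64 in the 2 longer ones. In the other genes it was 1.45 under 500 bases (23 genes) and 0.54 from 500 to 700 bases (18 genes). It was −0.15 from 700 to 1000 bases (19 genes) and −0.11 from 1000 bases upwards (61 genes). Across genes, rho between transcript length and the ratio was −0.29 for the ribosomal protein genes and −0.41 for the others. Each strain has 1 library of each number, but a library that does not list a gene drops out of its comparison. Against wild type, the numbers listed differed between the strains for 11 of 31 genes tested in uaf-1(n4588); rbm-5(n5119), 6 of 29 in uaf-1(n4588); rbm-5(n5132), 7 of 33 in uaf-1(n4588), 7 of 31 in rbm-5(n5119) and 6 of 34 in rbm-5(n5132).

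**Figure D3:**
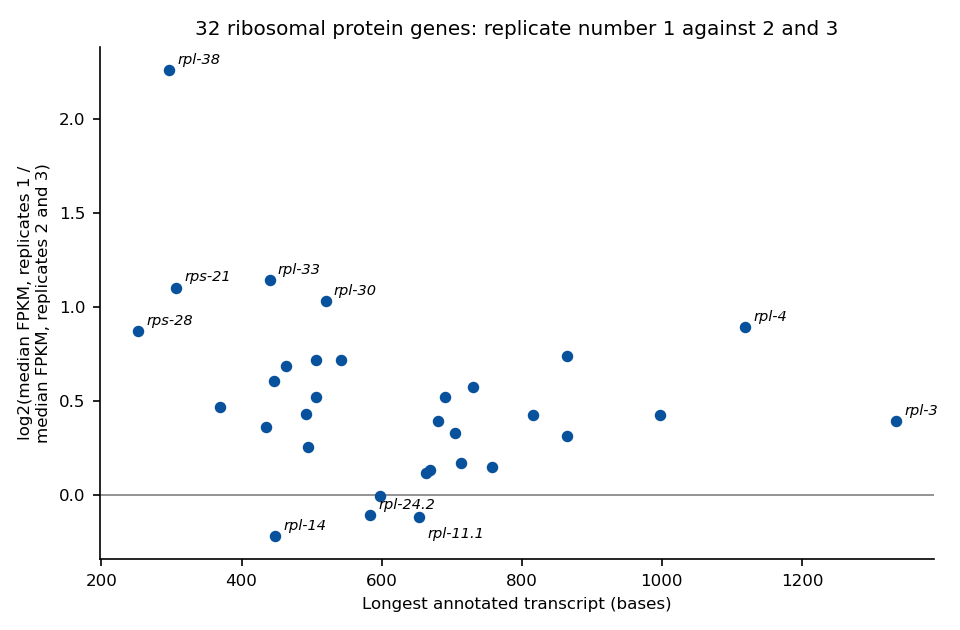
Log2 ratio of the median FPKM in replicate 1 libraries to that in replicates 2 and 3 (y) against the length of the longest annotated transcript (x, bases), 1 point for each of 32 ribosomal protein genes. Of the 32 points, 28 lie above 0, and rpl-38 lies highest at 2.26.

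Ribosomal protein genes listed singly took 4.64–12.1% of the summed start FPKM of a library, a share that leaves out joined loci and varies with which genes are listed. The highest share was that of rbm-5(n5119) replicate 2, the library with rpl-41.1 at 8471 FPKM. The 13 genes above 0 everywhere, which do not include rpl-41.1, took 1.90–3.82%, and the highest share was again that of rbm-5(n5119) replicate 2. To compare libraries, the log2 deviation of each of the 13 genes from its own median over the 18 libraries was taken. The median deviation of the 13 genes was set beside that of 3599 other genes above 0 everywhere. Relative to those genes, the ribosomal protein genes lay lowest in uaf-1(n4588); rbm-5(n5132) replicates 2 and 3, at −0.76 and −0.62. They lay highest in uaf-1(n4588) replicate 1 at 0.58 and wild type replicate 1 at 0.49. The strain means of this difference were −0.045 ± 0.186 in uaf-1(n4588); rbm-5(n5119), −0.485 ± 0.362 in uaf-1(n4588); rbm-5(n5132), 0.257 ± 0.285 in uaf-1(n4588), 0.049 ± 0.087 in rbm-5(n5132), 0.032 ± 0.132 in rbm-5(n5119) and 0.035 ± 0.399 in wild type (SD, n = 3 each). The third library of uaf-1(n4588); rbm-5(n5132), replicate 1, was at −0.074, so the low mean rested on 2 libraries. In bulk RNA a lower share cannot be told apart from a different mix of embryonic stages.

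Each strain was set against wild type on the log2(FPKM + 1) scale with limma and Benjamini-Hochberg adjustment over all genes tested, to ask whether the uaf-1 and rbm-5 mutations moved the ribosomal protein genes. A gene was called at an adjusted p under 0.05. No ribosomal protein gene was called in any comparison. The labels number the libraries but do not say that they came from separate cultures, so the p-values measure the spread between these libraries only.

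In uaf-1(n4588) against wild type, 0 of 33 ribosomal protein genes tested were called, where 14 of 8437 genes (0.166%) were, and 0 of 33 reached an unadjusted p under 0.05, where 5.96% of genes did. Their median log2 difference was 0.13, against −0.06 over all genes, and 21 of the 33 were positive. The smallest p belonged to rps-13 (log2 4.23, SE 2.60, adjusted p = 0.943 by limma), which rests on a wild type library at 0. Its values were 4916, 2128 and 928 FPKM in uaf-1(n4588), against 1402, 0 and 1046 FPKM in wild type. For rps-17 they were 3444, 0 and 2074 FPKM in uaf-1(n4588), against 2801, 1560 and 2039 FPKM in wild type, and the log2 difference of −3.43 (SE 2.11) rests on 1 mutant library at 0.

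In rbm-5(n5119) against wild type, 0 of 31 genes were called (all genes: 2 of 8561, or 0.0234%), and 0 of 31 reached an unadjusted p under 0.05 (5.64% of genes). The median log2 difference was −0.23 for the ribosomal protein genes and −0.23 for all genes, and 8 of 31 were positive, but with libraries scaled to 1 median it turned to 0.24 (all genes: 0.15), with 25 of 31 positive. The direction for this group therefore depended on the scaling. The smallest p belonged to rpl-22, at 1087, 2207 and 1023 FPKM in rbm-5(n5119), against 2507, 1737 and 2445 FPKM in wild type (log2 −0.71, SE 0.45, adjusted p = 0.649 by limma). The strains overlapped for this gene. The gene rps-17 is the convergent neighbour of rbm-5 on chromosome I (rps-17 at 6220093–6220764 on the minus strand, rbm-5 at 6215727–6219912 on the plus strand). It was listed at 1232 and 1095 FPKM in rbm-5(n5119), at 2598, 2084 and 1944 FPKM in rbm-5(n5132), and at 2801, 1560 and 2039 FPKM in wild type. Its log2 difference from wild type was −0.83 (SE 2.36) in rbm-5(n5119) and 0.08 (SE 2.11) in rbm-5(n5132). The standard errors are wide because 1 library elsewhere lists the gene at 0.

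In rbm-5(n5132) against wild type, 0 of 34 genes were called (all genes: 1 of 8687, or 0.0115%), and 1 of 34, rpl-11.1, reached an unadjusted p under 0.05 (4.98% of genes). The median log2 difference was −0.04, against −0.01 over all genes. The gene rpl-11.1 stood at 220, 417 and 365 FPKM in rbm-5(n5132), against 128, 160 and 107 FPKM in wild type. Every mutant library was above every wild type library, but the difference did not pass the adjustment (log2 1.30, SE 0.34, 95% interval 0.58 to 2.03, adjusted p = 0.587 by limma). Of the oocyte markers, 6 of 9 could be tested here, all 6 were positive with a median log2 difference of 1.01, and 2 reached an unadjusted p under 0.05. In uaf-1(n4588) against wild type all 6 were also positive, with a median of 1.75, and 3 reached an unadjusted p under 0.05 by limma. Their summed level was 238–439 FPKM in rbm-5(n5132), against 61.2–197.9 FPKM in wild type, and varies with which of them are listed singly. Among cuticle genes, sqt-3 was listed singly at 1298–3272 FPKM in 3 libraries of rbm-5(n5132), against 1189 and 2503 FPKM in 2 of wild type. The part of either in this result was not tested. In the other strains rpl-11.1 stood at 124–155 FPKM in uaf-1(n4588); rbm-5(n5119), at 128–132 in uaf-1(n4588); rbm-5(n5132), at 147–225 in uaf-1(n4588) and at 82.4–224.0 FPKM in rbm-5(n5119). The next smallest p was that of rpl-25.2, at 1433, 1996 and 2007 FPKM in rbm-5(n5132), against 1639, 1005 and 1127 FPKM in wild type (log2 0.54, SE 0.29, adjusted p = 0.998 by limma).

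In uaf-1(n4588); rbm-5(n5119) against wild type, 0 of 31 genes were called (all genes: 10 of 8334, or 0.12%), and 0 of 31 reached an unadjusted p under 0.05 (8.05% of genes). The median log2 difference was −0.30, against −0.16 over all genes, and 7 of 31 were positive, but with libraries scaled to 1 median it turned to 0.05 (all genes: 0.15), with 24 of 31 positive. With replicates 2 and 3 alone it was 0.03. The smallest p belonged to rpl-24.2, at 1271 and 445 FPKM in the double mutant, against 542, 455 and 420 FPKM in wild type (log2 0.68, SE 0.42, adjusted p = 0.579 by limma). It was not listed in replicate 1 of the double mutant, and without wild type replicate 1 the log2 difference was 0.78.

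In uaf-1(n4588); rbm-5(n5132) against wild type, 0 of 29 genes were called (all genes: 7 of 8330, or 0.084%), and 2 of 29, rps-2 and rps-9, reached an unadjusted p under 0.05 (8.31% of genes). The median log2 difference was −0.54, against −0.08 over all genes, and 4 of 29 were positive. With libraries scaled to 1 median it was −0.39, against 0.04 over all genes, again with 4 of 29 positive. Leaving out 1 library at a time moved this median between −0.88 and −0.28. The gene rps-9, for a small-subunit protein, stood at 1163 and 1191 FPKM in replicates 2 and 3 of the double mutant, against 3033, 1565 and 2114 FPKM in wild type (log2 −0.87, SE 0.37, adjusted p = 0.591 by limma). It was not listed in replicate 1 of the double mutant, the library in which the other ribosomal protein genes were not low. Without wild type replicate 1 its log2 difference was −0.63. The estimate for rps-2 (log2 −4.74, SE 1.84) rests on a library at 0: it was listed at 911 and 0 FPKM in the double mutant, against 1288, 501 and 818 FPKM in wild type.

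**Figure D4:**
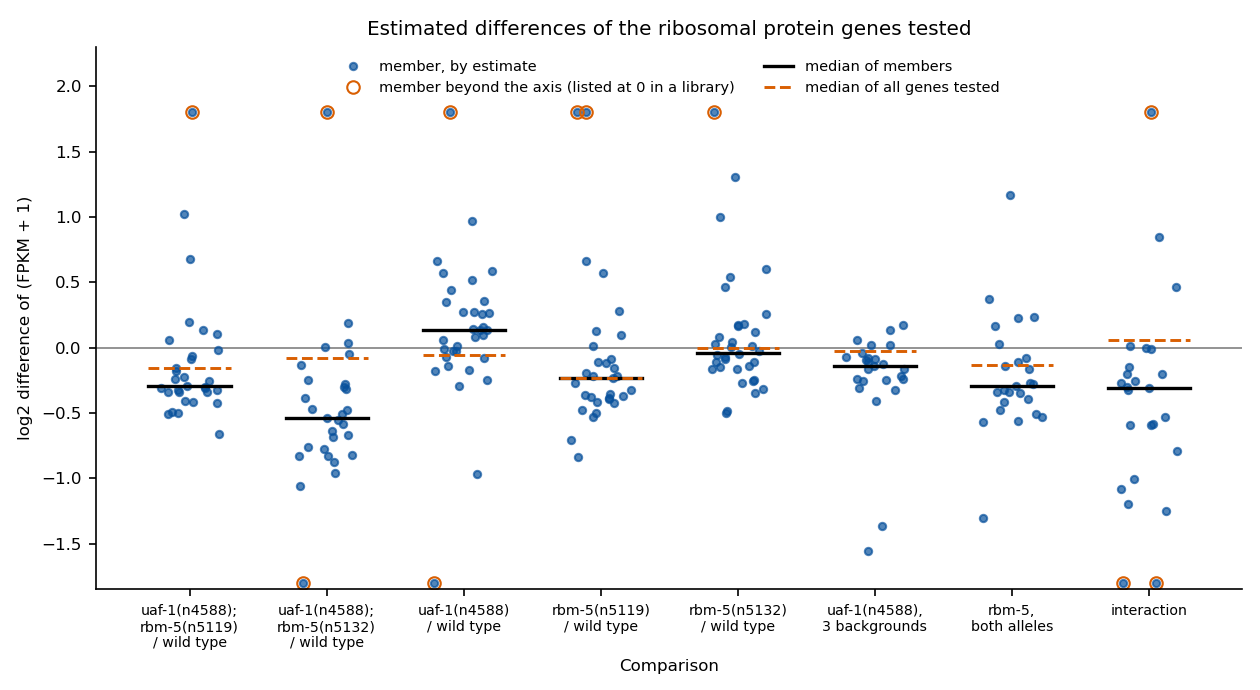
Log2 difference in (FPKM + 1) of each ribosomal protein gene tested (points) for 8 comparisons, with the median of these genes (black bar) and of all genes tested (dashed orange bar); circled points lie further out than drawn, are placed at the limit of the plot, and belong to genes listed at 0 in a library. The black bar lies furthest below the dashed bar for uaf-1(n4588); rbm-5(n5132) against wild type, at −0.54 against −0.08.

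Few ribosomal protein genes separated a mutant from wild type library by library. Every library was higher than every wild type library for 0 of 31 genes in uaf-1(n4588); rbm-5(n5119) (all genes: 7.04%), 0 of 29 in uaf-1(n4588); rbm-5(n5132) (7.64%), 0 of 33 in uaf-1(n4588) (7.64%), 0 of 31 in rbm-5(n5119) (3.12%) and 1 of 34, rpl-11.1, in rbm-5(n5132) (8.15%). Every library was lower for 0 of 31 in uaf-1(n4588); rbm-5(n5119) (9.72%), 3 of 29, rpl-14, rpl-26 and rps-9, in uaf-1(n4588); rbm-5(n5132) (9.14%), 0 of 33 in uaf-1(n4588) (9.71%), 1 of 31, rps-17, in rbm-5(n5119) (11.3%) and 0 of 34 in rbm-5(n5132) (5.01%). These counts take in only the libraries that list the gene.

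Averages over strains gave no call either. For uaf-1(n4588) averaged over 3 backgrounds, 0 of 25 genes were called (all genes: 47 of 7161, or 0.656%), and 0 of 25 reached an unadjusted p under 0.05 (7.01% of genes). The smallest p was that of rpl-25.2 (log2 −0.31, SE 0.17, adjusted p = 0.777 by limma). For rbm-5 mutations averaged over alleles and backgrounds, 0 of 25 were called (0.0279% of genes), and 2 of 25 reached an unadjusted p under 0.05 (9.19% of genes). These were rps-9 (log2 −0.51, SE 0.21) and rps-15 (log2 −0.57, SE 0.26), each with adjusted p = 0.516 by limma. The interaction, by how much uaf-1(n4588) changed a level more in rbm-5 mutants than in wild type, called 0 of 25 (0.014% of genes), and 2 of 25 reached an unadjusted p under 0.05 (3.3% of genes). These were rpl-11.1 (log2 −1.25, SE 0.42) and rpl-25.2 (log2 −1.01, SE 0.35), each with adjusted p = 0.9998 by limma. For the same interaction the 6 oocyte markers tested were all negative, with a median of −1.68, and their part was not tested. Any difference among the 6 strains, by an F test, called 0 of 25 (0.265% of genes), and 2 of 25 reached an unadjusted p under 0.05 (5.63% of genes), again rpl-11.1 (adjusted p = 0.617 by limma) and rpl-25.2 (adjusted p = 0.674 by limma). All these comparisons share libraries, so they do not count as separate evidence for 1 gene.

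The median half-width of the 95% interval was 0.98 on the log2 scale in uaf-1(n4588) against wild type, 0.98 in each rbm-5 single mutant, 1.04 in uaf-1(n4588); rbm-5(n5119) and 0.97 in uaf-1(n4588); rbm-5(n5132). For the average over 3 backgrounds it was 0.56. These intervals are not adjusted for the number of genes tested, and a call needed a larger difference: rpl-11.1 in rbm-5(n5132) had an interval that did not hold 0 and was not called. The absence of calls does not show that the levels were equal.

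Several ribosomal protein genes share a number in their names. The coding sequences of rpl-11.1 (WBGene00004422, V:3585312–3586064) and rpl-11.2 (WBGene00004423, X:2241738–2242618) are 588 bases each, and the protein they encode binds the 5S ribosomal RNA. The gene rpl-11.2 was listed at 645–1900 FPKM and rpl-11.1 at 82.4–417.1 FPKM, and rpl-11.2 was the higher in every library. Of their sum, rpl-11.1 made up 11.9 ± 4.79% in uaf-1(n4588); rbm-5(n5119), 11.3 ± 4.34% in uaf-1(n4588); rbm-5(n5132), 12.1 ± 1.92% in uaf-1(n4588), 23.2 ± 9.75% in rbm-5(n5132), 15.3 ± 9.77% in rbm-5(n5119) and 9.42 ± 4.87% in wild type (SD, n = 3 each). In rbm-5(n5132) the share was 12.3%, 31.03% and 26.4%, against 6.34%, 15.04% and 6.89% in wild type, so these strains overlapped. Of the others, rpl-25.2 was above 0 in all libraries, while rpl-25.1 (2264 and 3393 FPKM) was listed singly in 2, and was joined with glit-1 in 12. The gene rpl-24.2 was listed at 345–1271 FPKM in 17 libraries, and rpl-24.1 at 2169 FPKM in 1. Their coding sequences are 486 and 477 bases, and whether they encode the same protein was not checked. The genes rpl-7 and rpl-7A share only the number and encode different proteins, with coding sequences of 732 and 795 bases. Each was listed singly in 1 library, rpl-7 at 2135 FPKM and rpl-7A at 1066 FPKM. How far reads of rpl-11.1 and rpl-11.2 were assigned to each other was not tested.

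Other genes of the translation machinery showed no call. Of 6 proteins of the ribosomal stalk, ubiquitin fusions and scaffold, only ubl-1, the ubiquitin and ribosomal protein fusion, was listed singly, and none could be tested. The 6 elongation factor genes were searched under 9 names, which include older symbols. All 6 were listed singly, with eef-1A.2 at 0 in all 18 libraries. Of the 6, 4 were tested, with 0 called in any comparison. Their smallest p was that of eef-1A.1, which delivers aminoacyl-tRNA to the ribosome, for uaf-1(n4588) over 3 backgrounds (log2 −0.87, SE 0.33, adjusted p = 0.578 by limma). Next came eef-1G in rbm-5(n5132) against wild type (log2 0.67, SE 0.27, adjusted p = 0.985 by limma). Of 24 ribosome biogenesis genes 18 were listed and 12 to 15 tested, with 0 called, and their summed level was 830–1517 FPKM. Of these, lpd-6 had the smallest p (log2 0.31, SE 0.14 for rbm-5 mutations averaged, adjusted p = 0.516 by limma). In uaf-1(n4588); rbm-5(n5132) against wild type the median log2 difference was 0.06 over 15 biogenesis genes and −0.13 over 29 mitochondrial ribosomal protein genes, beside −0.54 over the 29 cytosolic ones. The difference between these lists was not tested. In uaf-1(n4588) against wild type the mitochondrial genes had a median of 0.34, with 29 of 33 positive and 0 called.

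Splice events were listed for few ribosomal protein genes. In all, 38 event forms in 15 genes were found, of which 12 forms in 6 genes (rpl-3, rpl-7A, rpl-12, rpl-13, rpl-22 and rps-6) were listed in all 18 libraries. A further 7 forms were listed in 3 to 17 libraries and 19 in 1 or 2. An event is listed where a library holds transcripts of both forms, including annotated transcripts at 0 FPKM, and the share of a form is its FPKM over that of both forms. Several of the 12 forms come from annotated noncoding transcripts that these libraries listed at 0 throughout. Events inside a gene were also taken from joined loci, as for rpl-7A in 17 libraries and rpl-12 in 7.

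In the gene rpl-3 (WBGene00004414, III:3867854–3869587, plus strand), transcript F13B10.2d.1 begins its second annotated exon at 3868464 where the main transcripts begin it at 3868445. The form from 3868464 and the start whose first exon ends at 3867952 had the same lowest, median and highest FPKM (0, 161 and 381). Use of this acceptor therefore cannot be told apart here from use of that start. The later acceptor was above 0 in 14 libraries, with shares of 0.152 to 0.357, and at 0 in 4. The 4 were uaf-1(n4588); rbm-5(n5132) replicate 1, rbm-5(n5119) replicate 3 and rbm-5(n5132) replicates 1 and 3. Its shares were 0.353, 0.220 and 0.244 in uaf-1(n4588); rbm-5(n5119), 0, 0.247 and 0.220 in uaf-1(n4588); rbm-5(n5132), and 0.277, 0.200 and 0.239 in uaf-1(n4588). They were 0.357, 0.164 and 0 in rbm-5(n5119), and 0, 0.248 and 0 in rbm-5(n5132), against 0.210, 0.198 and 0.152 in wild type. All 4 libraries at 0 carry an rbm-5 mutation, as do 4 of the 6 strains, and other libraries of the same strains lie in the range of wild type or above it. For the rbm-5 average, the log2 ratio of this form differed by −2.31 (SE 1.49, adjusted p = 0.793 by limma). A second form of rpl-3, with the third exon beginning at 3868773 (F13B10.2c.1), was above 0 only in rbm-5(n5132) replicate 3, at 288 FPKM and a share of 0.439.

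In the gene rpl-7A (WBGene00004419, IV:4389143–4390590, minus strand), the files list the stretch IV:4389640–4389701 as an intron that is retained or removed, although it lies inside an annotated exon. The form without it was above 0 in 6 libraries, at 54.5–67.4 FPKM, beside 391–466 FPKM for the form with it. These were uaf-1(n4588); rbm-5(n5119) replicate 2, uaf-1(n4588) replicates 2 and 3, rbm-5(n5132) replicates 2 and 3, and wild type replicate 2. The share of the form with the stretch was 0.865 in the first of these, 0.884 and 0.883 in uaf-1(n4588), 0.865 and 0.866 in rbm-5(n5132), and 0.876 in wild type. No replicate 1 library, and neither rbm-5(n5119) nor uaf-1(n4588); rbm-5(n5132), had this form above 0.

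In the gene rpl-26 (WBGene00004440, II:8602785–8603581, plus strand), 8 libraries listed alternative ends of the exon that begins at 8603115. The end at 8603271 (F28C6.7a.1) held 0.683–0.864 of the FPKM, the end at 8603324 (F28C6.7b.1) held 0.136–0.317, and another annotated end at 8603276 (F28C6.7c.1) was at 0 in all 8. The share of the later end was 0.171 and 0.196 in uaf-1(n4588); rbm-5(n5119), 0.317 and 0.316 in uaf-1(n4588); rbm-5(n5132), 0.267 in uaf-1(n4588) and 0.136 in rbm-5(n5132), against 0.228 and 0.302 in wild type.

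**Figure D5:**
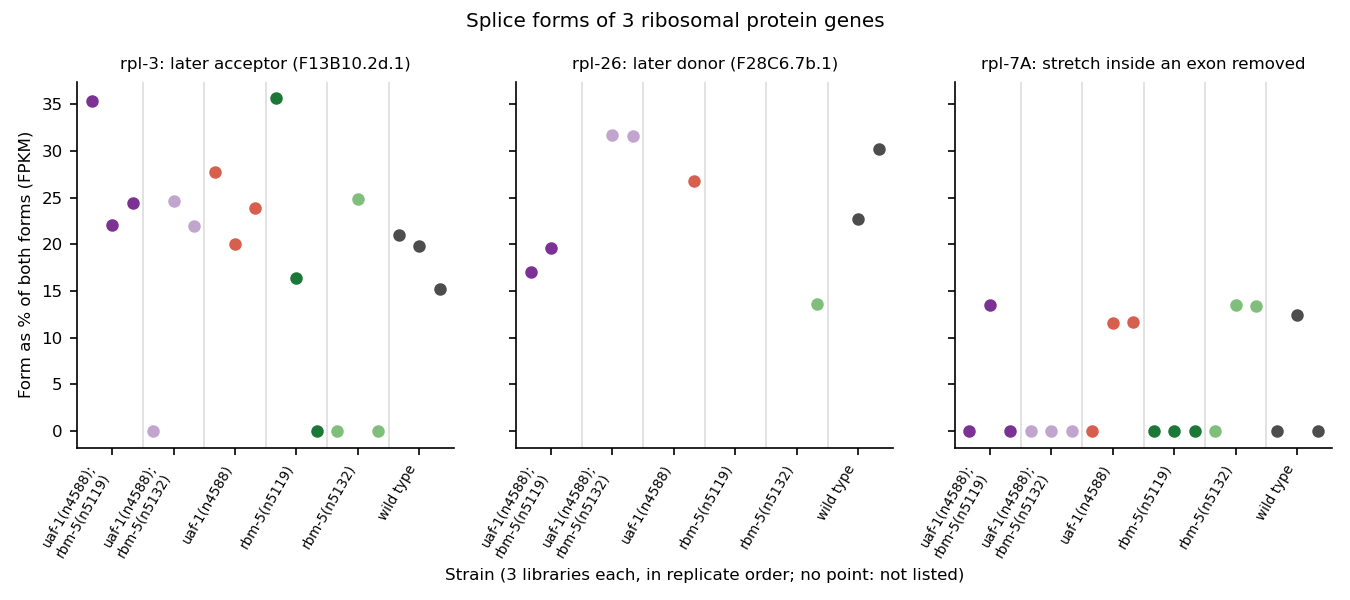
Share (% of the FPKM of both forms) of 3 splice forms in each library that lists them: the later acceptor of rpl-3, the later donor of rpl-26 and the form of rpl-7A without a stretch inside an annotated exon. Strains run from left to right with wild type last, and the points of the mutants overlap those of wild type for rpl-3 and rpl-7A.

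Some other forms, annotated or not, stayed at 0 in all 18 libraries. They were the long exon of rpl-12 at IV:13240025–13240398 (transcript JC8.3b, annotated as noncoding), the early acceptor of rpl-22 at II:5055785–5055987 (C27A2.2b, noncoding), the form of rpl-13 without the exon I:3788469–3788555, and the late acceptor of rps-6 at I:13952587–13952848. The product of rpl-12 sits at the base of the ribosomal stalk, and that of rps-6 is, in mammals, the classic substrate of S6 kinase. A 0 for a transcript degraded by nonsense-mediated decay cannot be told apart from one that was not made or not estimated.

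Some forms were listed in few libraries and are named after their values were seen. A retained intron of rpl-13, between the exon edges I:3788418 and 3788469, was listed in 3 libraries: uaf-1(n4588); rbm-5(n5119) replicate 3, at a share of 0.113, and uaf-1(n4588) replicates 2 and 3, at 0.196 and 0.148. All 3 carry uaf-1(n4588), as do 3 of the 6 strains. Retained introns of further genes were each listed in 1 library. These were rpl-33 in wild type (share 0.118), rps-7 in rbm-5(n5132) (0.150) and rpl-4 in uaf-1(n4588) (0.242). In rpl-19, an exon start at I:5485327 (minus strand) in place of 5485302 was listed in uaf-1(n4588); rbm-5(n5132) replicates 1 and 2 and in uaf-1(n4588) replicate 2, at shares of 0.128, 0.386 and 0.240. The retained intron just before that exon, I:5485302–5485381, was listed in rbm-5(n5119) replicate 3, rbm-5(n5132) replicate 2 and wild type replicate 2, at shares of 0.227, 0.196 and 0.209. With at most 3 libraries each, and no listing where the locus was assembled otherwise, these were not tested.

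Ratios of inclusion to exclusion were tested for all events with limma and Benjamini-Hochberg adjustment. Both forms of a paired choice, as in rpl-3, rpl-12, rpl-22 and rps-6, gave the same p with opposite signs. The forms counted here, and the events over all genes, are therefore not all separate tests. Against wild type, 0 of 12 event forms of ribosomal protein genes were called in uaf-1(n4588), where 30 of 3425 events (0.876%) were, and 0 of 12 in rbm-5(n5119) (0 of 3421 events, 0%) and in rbm-5(n5132) (0 of 3530, 0%). In the double mutants 0 of 15 were called with rbm-5(n5119) (0.468% of 3418 events) and 0 of 15 with rbm-5(n5132) (0.678% of 3392). Averaged over 3 backgrounds, uaf-1(n4588) called 93 of 2827 events (3.29%), and 0 of 12 forms in ribosomal protein genes. The rbm-5 average called 0 of 12 (0.0354% of events), the interaction 0 of 12 (0%) and the F test 0 of 12 (1.95%). No form reached an unadjusted p under 0.05 by limma in any of the 9 comparisons. Over all events, 8.66% did so in uaf-1(n4588); rbm-5(n5119) against wild type, 9.08% in uaf-1(n4588); rbm-5(n5132), 7.77% in uaf-1(n4588), 5.47% in rbm-5(n5119) and 4.67% in rbm-5(n5132). The shares were 12% for the uaf-1(n4588) average, 5.91% for the rbm-5 average, 3.57% for the interaction and 9.55% for the F test. For 9 of the 12 forms listed throughout, a side of the ratio was at 0 in at least 17 libraries, so their ratios follow the level of the gene.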

How the data were processed

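The authors deposited 1 list of events per library with FPKM values, per the file headers. Reads were mapped with TopHat2 2.0.12 and Bowtie2 to WBcel235, per the submitters' processing notes. The assembler and event caller are not given in the sources used here, and no scaling between libraries is stated. A gene's level was the summed start FPKM of loci naming it alone. Its splice events were also taken from joined loci, within its annotated bounds and a margin of 50 bases. Coordinates, lengths and transcripts are from annotation release 115 of WBcel235. Levels were fitted as log2(FPKM + 1), which understates changes of low genes, and splicing as log2((inclusion + 1) / (exclusion + 1)), where an alternative exon end was set against the overlapping forms of its locus. A gene or event was tested with at least 2 libraries in each strain compared and a mean of at least 1 FPKM. Libraries that did not list it were dropped from its fit, and values at 0 were kept.

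The 18 libraries entered 1 linear model per gene or event, with a mean for each strain and limma 3.58.1 (R 4.3.3) moderating the variances, along a trend with level for levels only. Tests were two-sided, with Benjamini-Hochberg adjustment over all genes or events of a comparison. The fit was checked on simulated data. Other pseudocounts, filters, end events, scaling, a replicate block, subsets and each library left out were tried. Named genes were the called ones, those highest and lowest, those at 0, those with the smallest p per comparison, those with splice events, and pairs sharing a number. The members and lists were chosen with earlier results of these data known. Descriptive values were computed with Python 3.11.15, pandas 2.3.3 and numpy 2.4.6.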

Additional observations from a re-analysis of the deposited data

Results flagged for a closer look

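Transcript end events, which entered no main comparison, held signal in libraries where the starts of the same gene were listed at 0. For rpl-20 this was so in 5 libraries, with ends of 2392 FPKM in uaf-1(n4588); rbm-5(n5132) replicate 2, 3316 in uaf-1(n4588) replicate 1, 2272 in rbm-5(n5119) replicate 2, 704 in rbm-5(n5132) replicate 1 and 2177 FPKM in wild type replicate 2. These 5 are all the libraries that list its start at 0. For rps-13 it was so in 2 libraries, at 766 FPKM in uaf-1(n4588); rbm-5(n5119) replicate 2 and 776 FPKM in wild type replicate 2. For rps-2 it was so in 1 library, uaf-1(n4588); rbm-5(n5132) replicate 2, at 531 FPKM, and for rps-17 in 1, uaf-1(n4588) replicate 2, at 1640 FPKM. The large estimated differences of rps-2, rps-13 and rps-17 in the comparisons rest on these listings at 0.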

How the results depend on the processing

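No ribosomal protein gene or splice form was called under any of 29 settings for levels and 28 for splicing, in all 505 counts of the alternatives. The lowest adjusted p was 0.0734 for levels (rpl-11.1, rbm-5(n5132) against wild type, with replicates 2 and 3 alone) and 0.264 for splicing. For rpl-11.1 in that comparison the log2 difference was 1.12 to 1.58 over all settings, always positive, with adjusted p from 0.0734 to 0.9999. Same-numbered libraries were not all correlated above 0.1, so the numbers were not taken as pairing them (−0.36 to 0.41, median 0.09, 21 of 45 above 0.1, beside a median of −0.03 and 22 of 90 for different numbers), although replicate 1 libraries shared higher levels of many genes, and the fit with a replicate block also called 0 in each comparison. Some single values turned sign. For rps-17 in uaf-1(n4588) against wild type the log2 difference became 0.13 with end events and 0.37 with values at 0 taken as missing, and it ranged from −5.51 to 0.37 with 1 library left out, where it became positive without uaf-1(n4588) replicate 2, the library at 0. For rpl-24.2 in uaf-1(n4588); rbm-5(n5119) against wild type it was −0.12 with end events, and for rps-9 there 0.0067 with replicates 2 and 3 alone. The causes were not tested, other than the listing at 0. With 1 library left out, the median of the ribosomal protein genes changed sign in uaf-1(n4588), rbm-5(n5119) and rbm-5(n5132) against wild type (−0.11 to 0.32, −0.48 to 0.07 and −0.28 to 0.22), and stayed below 0 in both double mutants, at −0.51 to −0.05 with n5119 and −0.88 to −0.28 with n5132. With libraries scaled to 1 median it turned to 0.24 in rbm-5(n5119) and 0.05 in its double mutant. Over all settings the number of all genes called against wild type was 4 to 22 in uaf-1(n4588); rbm-5(n5119) (main value 10), 1 to 19 in uaf-1(n4588); rbm-5(n5132) (7), 3 to 20 in uaf-1(n4588) (14), 0 to 8 in rbm-5(n5119) (2) and 0 to 6 in rbm-5(n5132) (1), and for the uaf-1(n4588) average 24 to 57 (47). Settings chosen after seeing the data were exclusion by the rest of the locus and leaving out 2 libraries that stand apart. Precision is limited by the unknown depth, by 3 libraries per strain and by genes listed in few libraries.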
